A study of Mus musculus with 10 samples.

Results

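*Gm1070* and the 4 genes that share its stretch of mouse chromosome 6, *Krcc1*, *Smyd1*, *Cd8b1* and *Cd8a*, were followed through 10 RNA libraries of sorted hippocampal microglia. These 5 rows were found by their symbols among the 55453 genes of the count table. They were chosen because *Gm1070* had more reads in every library from mice given glatiramer acetate (GA), a synthetic amino acid copolymer used in multiple sclerosis, than in any library from mice given phosphate-buffered saline (PBS), and because the other 4 genes lie beside or around it. The GA against PBS values of *Gm1070* are therefore a description and carry no test, whereas the neighbours were selected by position and could be tested. Of the 5 genes, 2 (*Gm1070* and *Krcc1*) passed the filter on low counts that left 14481 genes for testing.

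All 10 libraries came from female 3xTg AD mice older than 15 months. All of them, the controls included, carry the alleles of the 3xTg AD line, among them human Swedish APP and P301L MAPT, expressed by the study's methods from Thy1.2, a promoter used to drive genes in neurons. The mice received GA weekly at 0.1 mg for about 8 weeks (5 libraries, titled 394_1, 394_2, 400_1, 400_2 and 400_3) or PBS (5 libraries, 388_1 to 388_5). Microglia were sorted as viable CD11b+ CD45int cells. Each title prefix holds a single treatment and its meaning is not stated, so prefix and GA cannot be told apart. Whether each library came from a separate animal is also not stated, and p-values measure only the spread between these libraries. Total counts ran from 32332185 to 37708856 with PBS (median 32755942) and from 33300102 to 38764643 with GA (median 35275011).

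The *Cd8a* and *Cd8b1* genes encode the chains of the CD8 coreceptor, which cytotoxic T cells use to bind MHC class I, and *Cd8a* is also made by type 1 dendritic cells. *Smyd1* encodes a histone methyltransferase needed for heart and skeletal muscle development, and a transcript of it that starts next to *Cd8b1* is known from T cells. *Krcc1* encodes a lysine-rich coiled-coil protein that many tissues make. *Gm1070* is a predicted gene without an assigned function.

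*Gm1070* (ENSMUSG00000073018.5) lies at chr6:71293765-71302880 on the plus strand of GRCm38. GENCODE M21 lists it as a lincRNA with 1 transcript of 2 exons and 2874 exon bases, while RefSeq gives the same start and end and lists it as protein-coding. *Krcc1* (ENSMUSG00000053012.17, chr6:71271677-71285319, plus strand) ends 8446 bases before the *Gm1070* start. *Cd8b1* (ENSMUSG00000053044.8, chr6:71322788-71337494, plus strand) starts 19908 bases beyond the *Gm1070* end, and *Cd8a* (ENSMUSG00000053977.13, chr6:71373427-71379173, plus strand) starts 35933 bases after *Cd8b1* ends. *Smyd1* (ENSMUSG00000055027.17, chr6:71213940-71322233) runs on the minus strand around both *Krcc1* and *Gm1070*.

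That overlap rests on 1 of the 6 *Smyd1* transcripts in GENCODE, whose start lies 555 bases from the *Cd8b1* start. *Gm1070* and *Krcc1* both sit in intron 1 of this transcript (chr6:71239727-71321914, 82188 bases). The RefSeq model of *Smyd1* ends at 71262281, which is 31484 bases before *Gm1070*. No exon base of *Gm1070* is shared with another gene. *Krcc1* shares 125 exon bases with the microRNA gene *Mir8112*, which had 0 reads in all 10 libraries. Neither the strand setting used for counting nor a step that keeps the strand in library preparation is given in the sources used here. Reads from the *Smyd1* intron that fall on *Gm1070* exons could therefore have been counted with *Gm1070*.

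**Figure D1:**
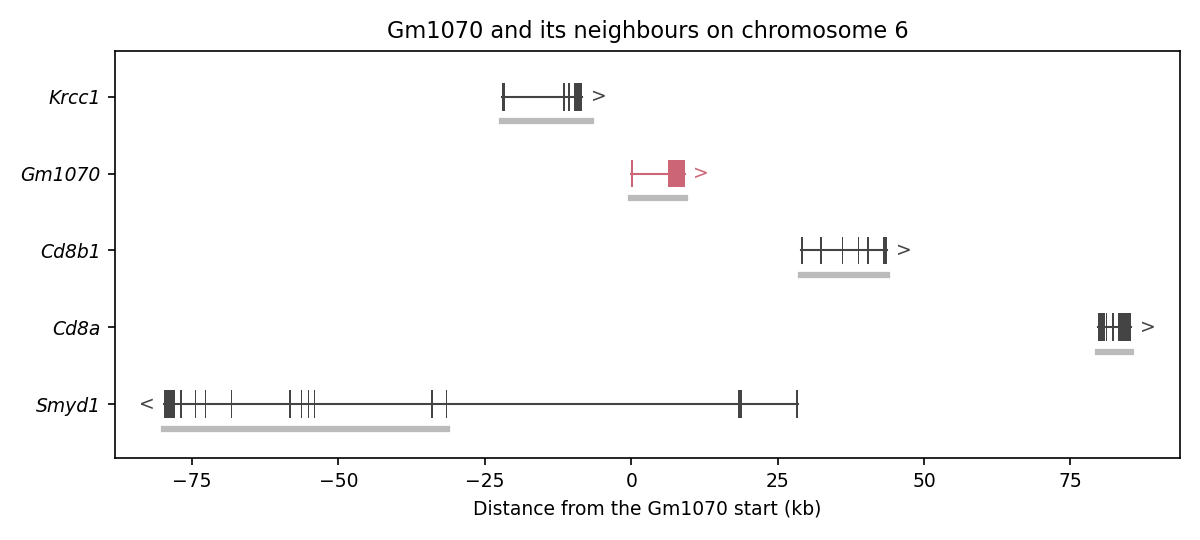
The 5 genes drawn to scale by distance in kb from the *Gm1070* start, with GENCODE exons as boxes, GENCODE extents as thin lines, RefSeq extents as grey bars and arrowheads for the strand. Only the GENCODE model of *Smyd1* extends over *Krcc1* and *Gm1070*; its RefSeq bar stops 31484 bases short of *Gm1070*.

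The longest frame of *Gm1070* that opens with ATG spans 194 codons (bases 119 to 703 of the transcript, chr6:71300125-71300709), all in the last exon. The coding frame of *Krcc1* spans 256 codons (chr6:71283986-71284756), also wholly in its last exon. A local alignment of the 2 translated frames (BLOSUM62 matrix, gap opening 11, extension 1) held 74 identical residues among 181 aligned pairs, or 40.9%. A stretch without gaps, residues 8 to 38 of the *Gm1070* frame against residues 9 to 39 of *Krcc1*, held 20 identical residues of 31, and the other identical residues lie outside it. It was taken where the frame of a shorter *Krcc1* transcript also aligned, and is shown as an example of the likeness. Capitals mark bases that are the same in both; *Gm1070* is chr6:71300146-71300238 and *Krcc1* is chr6:71284010-71284102, both on the plus strand of GRCm38.
Gm1070: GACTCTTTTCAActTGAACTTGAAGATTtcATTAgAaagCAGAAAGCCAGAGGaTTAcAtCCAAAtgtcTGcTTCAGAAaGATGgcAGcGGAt
Krcc1: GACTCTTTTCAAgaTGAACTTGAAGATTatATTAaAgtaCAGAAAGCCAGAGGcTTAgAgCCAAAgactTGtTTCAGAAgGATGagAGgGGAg
The 2 stretches share 72 of 93 bases (77.4%). The longest run of bases in common to the *Gm1070* and *Krcc1* transcripts was 14, and 0 other genes among 141767 GENCODE transcripts shared a run of 50 bases with *Gm1070*. In a tblastn search of those transcripts with the *Gm1070* frame, *Zmat1*, a zinc finger gene, scored 48.5 bits over residues 3 to 36 and *Krcc1* scored 48.1 bits over residues 8 to 40. The next gene, *Msantd4*, scored 33.1 bits over residues 43 to 89, outside the shared stretch.

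The 250 bases before the *Gm1070* start (RefSeq, GRCm38.p6, chr6:71293515-71293764, plus strand) are printed because this is the gene whose reads separated the groups. Capitals mark 2 CCAAT motifs and 1 ETS-type motif, CCGGAAGT, each searched on both strands.
Gm1070: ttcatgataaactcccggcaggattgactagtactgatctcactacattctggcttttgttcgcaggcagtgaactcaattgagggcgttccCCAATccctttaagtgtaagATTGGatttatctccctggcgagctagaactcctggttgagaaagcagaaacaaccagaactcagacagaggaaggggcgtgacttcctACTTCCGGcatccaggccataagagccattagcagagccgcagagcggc
CCAAT begins 158 bases before the start on the plus strand and 138 bases before it on the minus strand, and the ETS-type motif begins 49 bases before it on the minus strand. Over the 300 bases from 250 before to 50 after a start, 3.89% of 32851 mouse promoters hold CCGGAAGT and 37.4% hold CCAAT, so the first is the less common of the 2. The PU.1-type letters GAGGAAGT (3.20% of promoters), TATAAA (13.6%) and GGGCGG (35.7%) were not found in the *Gm1070* window. Its 300 bases have 12 CpG sites and a GC content of 52.3%, and 60.4% of promoters have fewer CpG sites. The *Krcc1* window differs, with 37 CpG sites, a GC content of 75.0% and 4 matches to GGGCGG, whereas *Smyd1* and *Cd8a* have 3 CpG sites each. *Smyd1* has 1 match each to TATAAA and CCAAT, *Cd8a* has none of the 5 motifs, and 4 of the 5 genes had a promoter entry.

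*Gm1070* was nearly silent with PBS and low but present with GA. In the PBS libraries 388_1 to 388_5 it had 4, 9, 0, 0 and 4 reads. In the GA libraries 394_1, 394_2, 400_1, 400_2 and 400_3 it had 25, 35, 33, 20 and 41 reads. Every GA library was above every PBS library, which is the pattern for which the gene was chosen. For comparison, 0.435% of the 14481 genes tested had every GA library above every PBS library.

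In normalised CPM, the counts scaled to a common library size, *Gm1070* had 0.105, 0.269, 0, 0 and 0.113 with PBS and 0.749, 0.982, 0.953, 0.524 and 1.05 with GA, in the same order of libraries. The mean was 0.0974 ± 0.110 CPM over the PBS libraries and 0.853 ± 0.216 CPM over the GA libraries (SD, n = 5 each). The lowest GA library, 400_2, was 1.95 times the highest PBS library, 388_2. A single read was worth 0.0257 to 0.0310 CPM, and a count of 0 allows for up to 3 reads, so the PBS libraries 388_3 and 388_4 do not show that the transcript was missing. These limits and the intervals given for reads take in counting error alone: the reads were amplified without molecular identifiers, and several may stem from 1 molecule.

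Summed over libraries, *Gm1070* had 17 reads with PBS and 154 with GA, a ratio of 8.63 after scaling by depth (95% counting interval 5.21 to 15.2). This interval treats reads as independent and leaves out the spread between libraries. It is too narrow for comparing the treatments and is no test. The edgeR fit gave a log2 fold change of 3.07 with a standard error of 0.69, and 3.83 without PBS library 388_2, which held 9 of the 17 PBS reads. By absolute log2 fold change *Gm1070* ranked 1 of the 14481 genes tested, among which 966 had a mean CPM at or below its 0.475. That rank restates the contrast for which the gene was chosen and lends it no support. With 0 to 9 reads in the PBS libraries, under the filter's minimum count of 10, *Gm1070* passed the filter only through the GA libraries. The variance of its reads over libraries was 4.06 times the mean with PBS and 2.25 times the mean with GA, where counting alone gives 1, and the coefficient of variation of its CPM was 113% with PBS and 25.3% with GA. At an adjusted p-value of 0.05, edgeR's quasi-likelihood test called 0 of the 14481 genes (0%), and 833 (5.75%) were under 0.05 before adjustment.

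**Figure D2:**
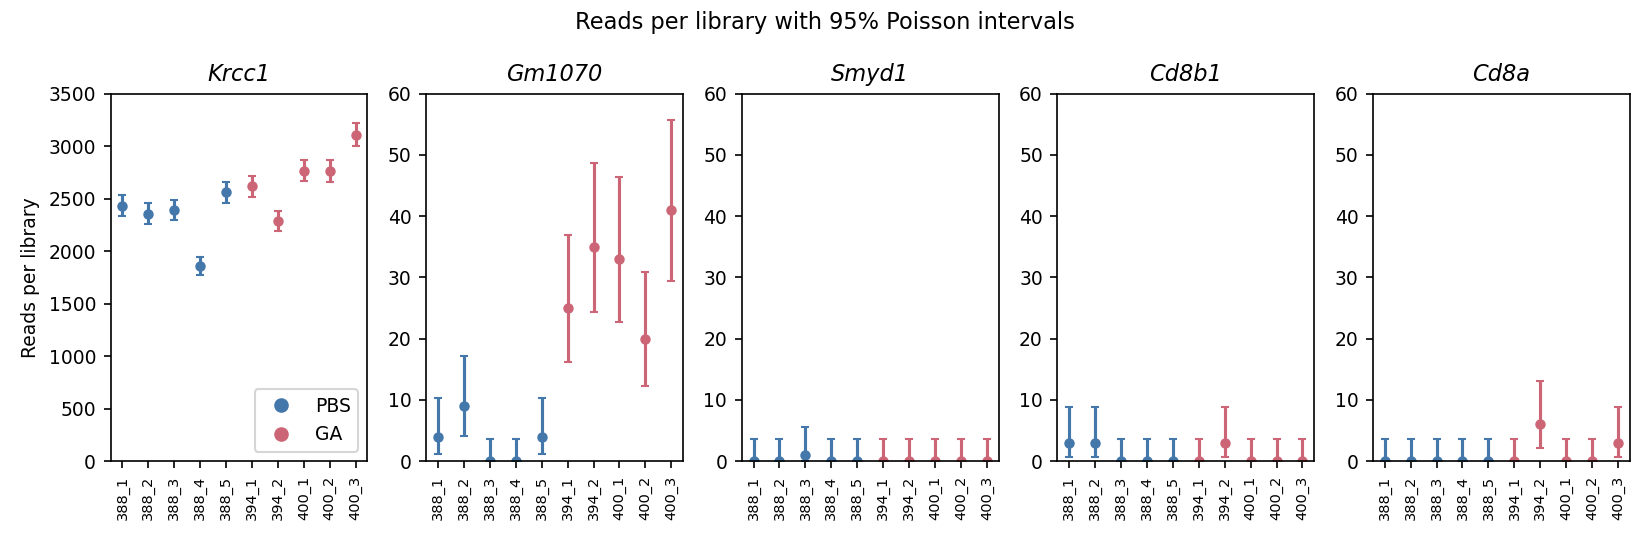
Reads per library (linear axes) for each gene, with 95% Poisson intervals as bars, PBS in blue and GA in red, and with a longer axis for *Krcc1*. *Gm1070* had 0 to 9 reads with PBS and 20 to 41 with GA, while *Smyd1*, *Cd8b1* and *Cd8a* stayed at 0 to 6 reads in every library.

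The GA libraries carry 2 title prefixes. *Gm1070* averaged 0.866 CPM in libraries 394_1 and 394_2, against 0.844 CPM in the other 3. From prefix 394 to prefix 400 the fitted difference was -0.04 on the log2 scale (SE 0.88, from an edgeR fit with all 10 libraries), too wide a spread to show that the prefixes are alike, and the lowest and the highest GA library both carried prefix 400. The same contrast gave 0.12 (SE 0.13) for *Krcc1*.

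*Krcc1*, the nearest neighbour on the same strand, was well expressed with both treatments and its groups overlapped. It had 2431, 2356, 2392, 1854 and 2559 reads in PBS libraries 388_1 to 388_5. It had 2615, 2284, 2766, 2763 and 3105 reads in the GA libraries in the order above. PBS library 388_4 was the lowest and GA library 400_3 the highest, but GA library 394_2 lay below 4 of the 5 PBS libraries in reads.

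In normalised values *Krcc1* averaged 67.4 ± 6.72 CPM over the PBS libraries, from 57.4 to 73.1, and 74.9 ± 6.79 CPM over the GA libraries, from 64.1 to 79.9 (SD, n = 5 each). Its log2 fold change was 0.15 (SE 0.09), and the difference did not pass the test (adjusted *P* = 0.895 from edgeR's quasi-likelihood test, *P* = 0.159 in a two-sided exact permutation test over the 10 libraries). The smallest p-value that this permutation test can give is 0.00794.

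*Smyd1* had 1 read in the whole experiment, in PBS library 388_3, and 0 in the other 9 libraries. It could not be compared at this depth (two-sided exact permutation test on log2(CPM + 0.1), *P* = 1, the only value that 1 read allows). The exons of the gene around *Gm1070* thus had 0 reads in all 5 GA libraries; its introns were not counted in the table.

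*Cd8b1* had 3 reads in each of PBS libraries 388_1 and 388_2, 3 reads in GA library 394_2 and 0 in the other 7. The groups overlapped (two-sided exact permutation test on log2(CPM + 0.1), difference -0.18, *P* = 0.722). *Cd8a* had 0 reads in every PBS library, 6 in GA library 394_2, 3 in GA library 400_3 and 0 in the other 3 GA libraries. Its difference on the same scale was 0.45 (two-sided exact permutation test, *P* = 0.444). With reads in only 2 libraries, both GA, this test could give no lower p-value, so it cannot decide whether *Cd8a* differed. Both CD8 genes had reads together in 1 library, 394_2, and at counts this close to the limit of 3 reads that a 0 allows, no fold is given. In an edgeR fit without a filter on low counts, over 27564 genes, adjusted p-values were 0.667 for *Smyd1*, 0.888 for *Cd8b1* and 0.667 for *Cd8a*. Before adjustment the same quasi-likelihood test gave 0.232, 0.535 and 0.0247 in that order, the last resting on reads in 2 libraries.

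Levels were also set against exon length. With PBS, *Krcc1* had 35.2 ± 3.51 CPM per kb (SD, n = 5) and *Gm1070* had 0.0339 ± 0.0384 CPM per kb. *Gm1070* was then within the spread of *Cd8b1*, at 0.0227 ± 0.0312 CPM per kb, and *Smyd1* (0.00134 CPM per kb) and *Cd8a* (0) came last. With GA, *Krcc1* had 39.2 ± 3.55 CPM per kb and *Gm1070* had 0.297 ± 0.0751 CPM per kb. *Cd8a* (0.0135 ± 0.0205 CPM per kb) and *Cd8b1* (0.0114 ± 0.0254 CPM per kb) followed and did not differ beyond their spread, and *Smyd1* was at 0. Over all 10 libraries 79.9% of the genes tested had a lower mean CPM than *Krcc1*, and 6.66% had a lower mean CPM than *Gm1070*.

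A further gene model inside the locus, *Gm44321* (chr6:71276494-71279348, plus strand), lies in an intron of *Krcc1* and gives a view of reads from that intron. It had 111, 111, 70, 120 and 61 reads with PBS. It had 112, 95, 28, 72 and 49 reads with GA. The lowest library was GA library 400_1, and the groups overlapped, with a log2 fold change of -0.47 (SE 0.36, adjusted *P* = 0.911 from edgeR's quasi-likelihood test).

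For each 1000 *Krcc1* reads, *Gm1070* had 1.65, 3.82, 0, 0 and 1.56 reads in PBS libraries 388_1 to 388_5. The same ratio was 9.56, 15.3, 11.9, 7.24 and 13.2 in the GA libraries. For *Gm44321* it was 23.8 to 64.7 with PBS and 10.1 to 42.8 with GA. The separation for *Gm1070* is the one for which it was chosen. The *Gm44321* ratio overlapped between groups and was lowest in GA libraries 400_1 and 400_3 and PBS library 388_5.

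**Figure D3:**
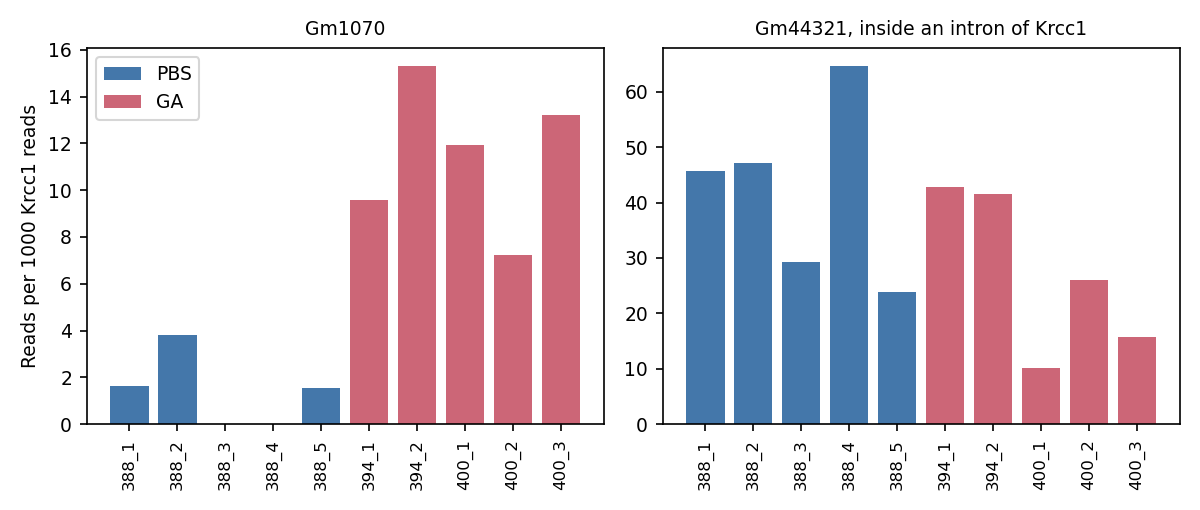
Reads of *Gm1070* (left) and of the intronic model *Gm44321* (right) per 1000 *Krcc1* reads, a bar for each library, PBS in blue and GA in red, on linear axes from 0. *Gm1070* runs from 0 to 3.82 with PBS and from 7.24 to 15.3 with GA, while the *Gm44321* bars of the groups overlap.

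Of the genes tested in the wider neighbourhood of *Gm1070*, none passed the test. Within 500 kb lie 36 genes of the table, 14 of them protein-coding, of which 11 had 0 reads in every library and 15 had reads but too few for the filter. Besides *Gm1070*, 9 passed the filter, 4 with a higher and 5 with a lower mean in GA. None passed the test (0 of 9, against 0% of all genes tested), and 0 of the 9 had an unadjusted p-value under 0.05, against 5.75% of all genes tested. The smallest adjusted p-value from edgeR was 0.895, and in 0 of the 9 was every GA library above every PBS library, against 0.435% of all genes tested, or every one below. Without GA library 394_2, 1 of these genes had an unadjusted p-value under 0.05. This was *Krcc1*, with a log2 fold change of 0.20 (SE 0.08, adjusted *P* = 0.667 from edgeR's quasi-likelihood test).

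The log2 fold changes of these 9 genes ran from -0.47 (*Gm44321*) to 0.22 (*Thnsl2*), with a median of -0.01, against 0.000199 over all genes tested. *Rmnd5a*, the first tested gene beyond *Cd8a* and a ubiquitin ligase subunit, had 0.07. *Rnf103*, another ubiquitin ligase gene, had -0.07, and *Chmp3*, of the ESCRT-III membrane remodelling complex, had -0.01. *Kdm3a*, a histone H3 lysine demethylase, had 0.01, and *Eif2ak3*, which encodes the endoplasmic reticulum stress kinase PERK, had -0.03. For none of these genes did the difference between GA and PBS pass the test.

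**Figure D4:**
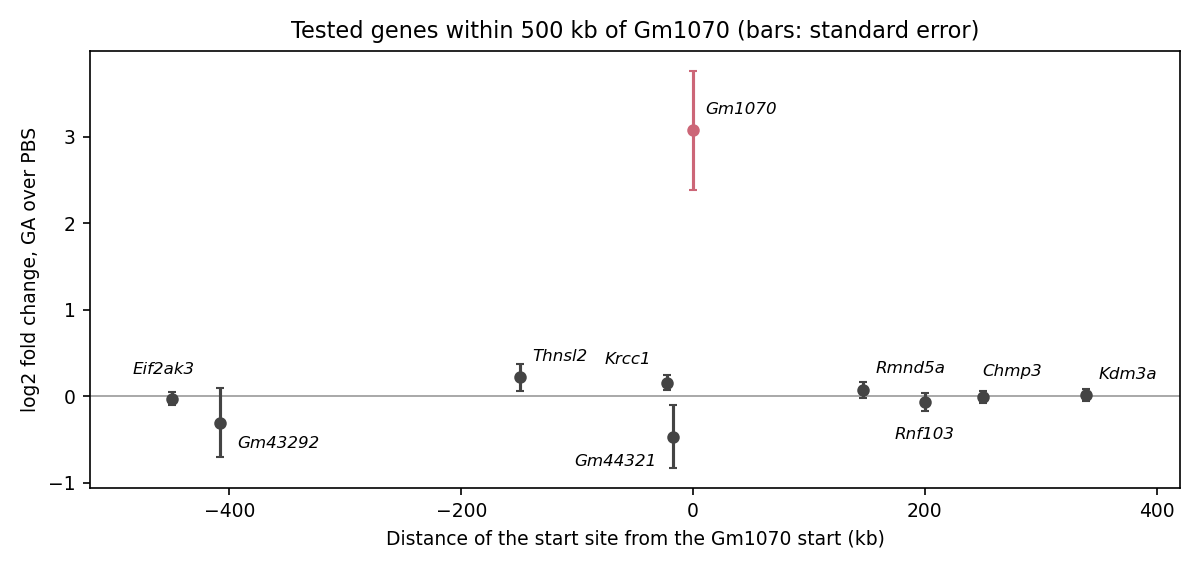
Log2 fold change of GA over PBS, with standard error bars, against the distance of each start site from the *Gm1070* start in kb, for the 10 tested genes within 500 kb. *Gm1070*, in red, stands at 3.07 and the other 9 lie between -0.47 and 0.22.

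Genes of the pathways that the neighbours belong to were read from hand-written lists. Of 18 T cell receptor and CD8 coreceptor partners, 5 passed the filter, 3 higher and 2 lower in GA, and 0 passed the test. *Cd5*, a receptor that dampens T cell receptor signals, had 103 to 170 reads with PBS and 127 to 293 with GA, and *Lck*, the kinase that CD8 carries, had 20 to 35 and 17 to 53. *Themis*, needed for T cell development, had 0 reads in all 10 libraries. *Cd28*, a costimulatory receptor gene, had 10 to 41 reads with PBS and 12 to 22 with GA, and *Cd27*, another costimulatory receptor gene, had 48 to 128 and 47 to 107. *Cd4*, the coreceptor gene of helper T cells, had 0 to 42 and 7 to 51, so the groups overlapped for all 5. Among those below the filter, *Skap1*, a T cell adaptor, had 0 reads with PBS and 4, 2 and 4 in GA libraries 394_2, 400_1 and 400_3, whereas *Zap70*, a T cell receptor kinase, had 10 reads in PBS library 388_3 and at most 1 in any GA library.

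The class I genes that CD8 binds were abundant. *H2-K1* had a log2 fold change of 0.22 (SE 0.18), *H2-D1* of 0.34 (SE 0.18) and *B2m*, the shared light chain, of 0.04 (SE 0.14). The 3 means were higher with GA and 0 passed the test, and GA library 400_3 had the highest value of each gene (896, 2489 and 2342 CPM). Of 12 cytotoxic T and NK cell genes, only *Ccl5*, a chemokine gene, passed the filter, with 44 to 72 reads with PBS and 28 to 221 with GA, and *Gzmb*, *Eomes*, *Tbx21* and *Ncr1* had 0 reads throughout.

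Of 12 genes of the SMYD family and *Smyd1* partners, 10 passed the filter, 3 higher and 7 lower in GA, with 0 past the test. *Smyd2* had 39 reads in PBS library 388_4, 96 to 116 in the other PBS libraries and 113 to 142 with GA. *Smyd3*, *Smyd4* and *Smyd5* had log2 fold changes of -0.10, -0.21 and -0.05, and *Hand2* and *Trim63*, of heart and muscle, had 0 reads in all libraries. Of 8 type 1 dendritic cell genes, 7 passed the filter, 3 higher and 4 lower, with 0 past the test, and 1 of the 7 had an unadjusted p-value under 0.05, against 5.75% of all genes tested. This was *Cd24a*, a surface glycoprotein gene, with a log2 fold change of -1.80 (SE 0.71, adjusted *P* = 0.854 from edgeR's quasi-likelihood test).

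Marker genes were summed for the cell types that could bring in reads of these genes. The 7 microglia markers, among them *P2ry12* and *Tmem119*, summed to 45820 to 55542 CPM with PBS and 47376 to 51353 CPM with GA, as the sort intended. The 7 T cell markers summed to 1 to 21 reads with PBS and 6 to 15 with GA, and none passed the filter. In these bulk libraries, fewer cells of a type and less RNA per cell cannot be told apart.

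GA library 394_2, with reads of both CD8 genes, had 6 T cell marker reads, 4 of them of *Cd247*, and the part of T cell RNA in the CD8 reads was not tested. *Cd247*, the T cell receptor zeta chain gene, had 0 to 1 reads per PBS library and 2 to 4 per GA library, counts too close to the limit of 3 reads for a comparison. The 3 NK cell markers had 2 to 11 reads with PBS and 0 to 12 with GA.

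The 10 striated muscle markers summed to 288 to 597 reads with PBS and 456 to 582 with GA. Nearly all were from *Myl2*, a cardiac myosin light chain gene (284 to 580 and 423 to 554 reads). *Mb* had 0 reads, *Ckm* had at most 4 in any library, and *Acta1*, *Myh6* and *Myh7* had at most 3, 3 and 1. *Ttn*, which encodes the sarcomere protein titin, had 3 to 39 reads with PBS and 8 to 27 with GA.

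The neutrophil markers had lower means with GA, under 0.05 only before adjustment. They summed to 32.6 to 403 CPM with PBS and 7.80 to 148 CPM with GA, and 5 of 5 were lower in GA with unadjusted p-values under 0.05, against 5.75% of all genes tested, while 0 of 5 passed edgeR's test after adjustment, as did 0% of all genes. PBS libraries 388_3 and 388_4, with 0 *Gm1070* reads, had 13193 and 8597 neutrophil marker reads. PBS libraries 388_1 and 388_5, with 4 *Gm1070* reads each, had 5646 and 11407, and PBS library 388_2, with 9, had 1092. In the GA libraries 394_1, 394_2, 400_1, 400_2 and 400_3 the neutrophil marker reads were 1281, 5286, 270, 603 and 3700. The part of neutrophil RNA in the *Gm1070* difference was not tested.

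**Figure D5:**
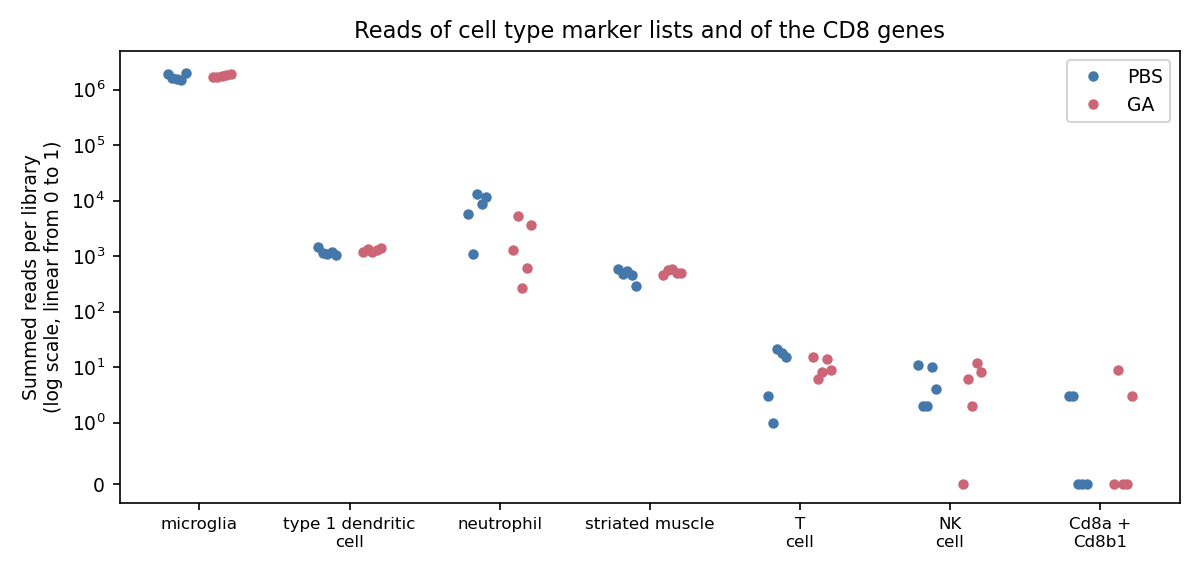
Summed reads per library of 6 marker lists and of *Cd8a* plus *Cd8b1*, a point for each library, PBS in blue and GA in red, on a log axis that is linear from 0 to 1. T cell, NK cell and CD8 reads stay at 21 or fewer in every library, whereas microglia markers sum to 1478791 reads or more.

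The pattern of *Gm1070* over the 10 libraries was set against all 14480 other tested genes by Pearson's r of log2 CPM (prior count 2), as a description in which all genes share the same libraries and depths. The median r was 0.02, 92 genes reached 0.8 and 68 reached -0.8. The genes most like it were *Nat1* (0.935), *Gm2999* (0.916), *Lgi4* (0.910), *Gm16279* (0.907) and *3110001I22Rik* (0.907). *Nat1*, an arylamine acetyltransferase gene, had 66 to 115 reads with PBS and 123 to 170 with GA, although its groups overlapped in normalised CPM, and *Lgi4*, a secreted protein gene, had 293 to 476 and 428 to 622.

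The genes with the most opposite pattern were *Gm3608* (-0.917), *E030022I16Rik* (-0.908), *Ethe1* (-0.900), *S1pr2* (-0.889) and *Ncs1* (-0.877). *S1pr2*, a sphingosine-1-phosphate receptor gene, had 567 to 713 reads with PBS and 467 to 660 with GA. *Krcc1* had an r of 0.563 with *Gm1070* and stood at rank 1071. These values hold the group difference for which *Gm1070* was chosen. After each group's mean was taken out, r was 0.873 for *Nat1*, 0.764 for *Gm2999*, 0.758 for *Lgi4*, 0.863 for *Gm16279*, 0.623 for *3110001I22Rik* and 0.266 for *Krcc1*. It was -0.784 for *Gm3608*, -0.551 for *E030022I16Rik*, -0.816 for *Ethe1*, -0.804 for *S1pr2* and -0.518 for *Ncs1*. Apart from *Krcc1*, these genes were picked by an r that already holds the within-group part. Their large values here follow in part from that choice, and no value over all genes stands beside them.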

How the data were processed

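RNA of sorted hippocampal microglia was prepared with the SMARTer Ultra Low Input kit and Nextera XT and sequenced single-end. The submitters' processing notes name bcl2fastq 2.19.0, fastp 0.20.0, STAR 2.7.0f, Subread 1.6.4, featureCounts, DESeq2 and GRCm38.p6; the annotation release and the handling of reads with several matches are not given in the sources used here. The authors deposited raw counts of reads per gene. Library groups came from the sample labels, and 0 columns lacked a sample. No pair among 45 was a copy (chi-square per degree of freedom 13 to 50.9).

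Genes were filtered with filterByExpr (minimum count 10), scaled by TMM and tested with edgeR 4.0.16 (quasi-likelihood F-test, all 10 libraries, no covariate, Benjamini-Hochberg adjustment, threshold 0.05) in R 4.3.3. Standard errors are the log2 fold change divided by the root of F. CPM of genes below the filter used the same library sizes, and single genes were compared by exact permutation on log2(CPM + 0.1). Alternatives were limma 3.58.1 (voom), DESeq2 1.42.0, DESeq2's size factors, other filters, each library left out, either GA prefix alone and a replicate block. Scripts were tested on simulated data. Sequences were compared with Biopython 1.88 and BLAST 2.17.0 in Python 3.11.15.

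The members, gene lists and tests were chosen with earlier results of these data known. Genes named were the members, tested genes within 500 kb, list genes and the 5 most like and most opposite to *Gm1070*; *Dcstamp*, *Gm15920*, *Zmat1* and *Msantd4* were named after their values were seen. Some items are not reported here.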

Additional observations from a re-analysis of the deposited data

Results flagged for a closer look

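In groups of 5 libraries, the library farthest from the others was compared with the range of its group, and 3 of 46 groups held a library whose gap exceeded Dixon's 95% critical value, where chance flags about 1 in 20. *Smyd1* with PBS had a gap of 1 (the whole range), since library 388_3 had 0.0305 CPM and the others 0. *Cd8b1* with GA likewise had 1, since library 394_2 had 0.0842 CPM and the others 0. Each of these rests on 1 and 3 reads. The striated muscle markers with PBS had a gap of 0.738, with library 388_5 at 8.16 CPM and the others at 14.2 to 16.4 CPM.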

How the results depend on the processing

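The log2 fold change of *Gm1070* ran from 2.77 to 3.83 under 17 alternatives, the highest without PBS library 388_2, and its direction was fixed by the choice of the gene; a filter of at least 10 reads in every library dropped the gene and gave no value. *Krcc1* stayed between 0.09 and 0.20 under 18 alternatives and never passed the test (adjusted p-values 0.648 to 0.99999). For *Cd8a*, *Smyd1* and *Cd8b1* the values are differences in mean log2(CPM + 0.1), not folds from the edgeR fit. *Cd8a* ran from 0.21 to 0.71 under 15 alternatives (exact permutation p-values 0.167 to 0.444). With reads in only 2 libraries it could not have passed this test in any of them. *Smyd1* ran from -0.10 to 0, the 0 without PBS library 388_3, which held its 1 read. *Cd8b1* turned to 0.0889 with the GA libraries of prefix 394 alone (exact permutation *P* = 0.810) and otherwise ran from -0.35 to -0.03. The count of genes called over all genes rose from 0 to 2 with DESeq2 (*Dcstamp*, and *Gm1070*, whose call is no test since the choice of the gene used the same values) and ran from 0 to 1 when each library was left out, the 1 being *Gm15920* without GA library 394_1; the cause was not tested. In the neighbourhood 0 genes besides *Gm1070* were called under all 18. Of the 5 genes most like *Gm1070*, 3 remained with a prior count of 0.5 and 2 with Spearman's correlation.

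Same-numbered PBS and GA libraries did not deviate together (correlations -0.109 to 0.0438 over 5 pairs). What the number stands for is not stated, and so few pairs cannot show that the libraries share only a number. With the title number as a replicate block, 0 genes were called, and log2 fold changes were 2.82 for *Gm1070* and 0.13 for *Krcc1*. At 0 to 9 reads, *Smyd1*, *Cd8b1*, *Cd8a* and *Gm1070* with PBS were limited by depth.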
